A study of Mus musculus with 8 samples.

Results

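The 10 genes described here are Dazl, Rbm46, Taf7l, Zfp541, Btbd18, Stk31, Tex101, Slc25a31, Tex13b and Mlc1, out of 54232 genes counted. They were chosen by their large rises in read count after knockdown of Usp7 and are mostly germ cell genes that lie outside the piRNA pathway and the synaptonemal complex. The rule states no threshold, so their levels in the Usp7 experiment are given as a description, without a test. Their behaviour in the Ssrp1 experiment was not used in the choice and was tested. RNA-seq of polyadenylated RNA was made from mouse E14 embryonic stem cells (strain given as 12910la), kept in serum and the cytokine LIF on gelatin, in 4 groups of 2 libraries. One experiment compared control cells with cells targeted by Cas9 and a guide RNA against Ssrp1, a subunit of the histone chaperone FACT; whether each group is 1 clone is not given in the sources used here. The other compared control cells with cells that received 1000 ng of a pSuper puro plasmid carrying an shRNA against the deubiquitinase gene Usp7, followed after 24 h by 1 ug/ml puromycin for 3 days. Which plasmid the Usp7 controls received is not given in the sources used here either.

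Germ cells depend on genes that are silent in nearly all other cells. In embryonic stem cells many of these genes are held silent by repressor complexes recruited to CpG-rich promoters, by histone methylation and by DNA methylation. Among the known repressors is a polycomb complex that contains E2f6 and the partners Mga and Max, which recognise E2F sites and the E-box CACGTG. Of the genes described here, Dazl and Rbm46 encode RNA-binding proteins needed for germ cell development and meiosis. Taf7l is a germ cell relative of the TFIID subunit gene Taf7, Zfp541 encodes a zinc finger protein of spermatocytes, and Btbd18 a nuclear protein needed for transcription of piRNA precursors. Stk31 encodes a protein with tudor and kinase-like domains, Tex101 a surface glycoprotein of testicular germ cells, and Slc25a31 the germ cell ADP/ATP carrier of mitochondria. Tex13b is an X-linked testis-expressed gene. Mlc1 is the exception, a membrane protein gene known from astrocytes.

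The libraries held 15879056 to 18361130 counts each. Usp7 stood at 371 and 359 normalised CPM (counts scaled to the size of each library) in its controls, against 111 and 122 under knockdown (log2 change -1.64, SE 0.19, adjusted p = 0.0012 in edgeR's quasi-likelihood test). The Ssrp1 transcript stood at 462 and 479 CPM in its controls, against 412 and 123 in the pair labelled knockout, whose replicate 1 was thus near the controls (log2 change -0.77, adjusted p = 0.41). Results of that experiment are therefore given for the libraries labelled Ssrp1 knockout, with and without each of them. Mitochondrially encoded genes took 0.732% and 0.776% of counts in the Ssrp1 controls, 7.31% and 2.81% in the libraries labelled knockout, and 1.67% to 2.44% in the Usp7 experiment. The labels do not say that replicates were separate cultures, so p-values measure the spread between these libraries, which may be technical. In RNA from a whole culture, a few cells with much of a transcript and many cells with little of it cannot be told apart.

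What the genes share in sequence was read from the RefSeq promoter windows of GRCm38.p6, which hold 250 bases before and 50 after an annotated start and were found for 10 of 10 genes. The windows were searched on both strands for CACGTG, the E-box bound by Mga and Max, for TCCCGC, the core of E2F sites, and for GGTGTGA, the core of T-box sites. CACGTG occurred in 4 of the 10 windows, against 7.15% of all 32841 promoter windows and 11.3% of the CpG-rich ones, whose CpG count was over 0.6 of that expected from their C and G. TCCCGC occurred in 2 of 10, against 20% of all windows and 43.1% of the CpG-rich ones. GGTGTGA occurred in none, against 3.98%. The 4 windows with an E-box are given here because they hold the most shared motif, 5′ to 3′ on the gene's strand, with CACGTG and TCCCGC in capitals; CACGTG reads the same on both strands and did not overlap TCCCGC. After them come the window of Dazl, the gene with the clearest rise in both experiments, and that of Mlc1, which was low in CpG; neither holds one of the motifs. They lie at chrX:134476441-134476740 (minus strand) for Taf7l, chr3:40708621-40708920 (plus) for Slc25a31, chr3:82876434-82876733 (minus) for Rbm46, chr6:49395354-49395653 (plus) for Stk31, chr17:50293571-50293870 (minus) for Dazl and chr15:88978504-88978803 (minus) for Mlc1.
Taf7l: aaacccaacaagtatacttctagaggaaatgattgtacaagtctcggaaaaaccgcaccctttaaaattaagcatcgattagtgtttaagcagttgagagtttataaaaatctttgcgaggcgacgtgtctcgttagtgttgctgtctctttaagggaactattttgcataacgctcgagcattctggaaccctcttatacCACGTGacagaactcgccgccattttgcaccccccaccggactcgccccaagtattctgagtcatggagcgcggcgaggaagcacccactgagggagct
Slc25a31: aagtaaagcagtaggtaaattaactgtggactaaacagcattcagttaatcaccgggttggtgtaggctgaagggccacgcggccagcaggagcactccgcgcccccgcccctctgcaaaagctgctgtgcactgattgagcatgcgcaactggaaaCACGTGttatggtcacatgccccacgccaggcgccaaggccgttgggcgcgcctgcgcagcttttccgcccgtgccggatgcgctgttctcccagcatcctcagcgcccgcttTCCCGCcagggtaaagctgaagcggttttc
Rbm46: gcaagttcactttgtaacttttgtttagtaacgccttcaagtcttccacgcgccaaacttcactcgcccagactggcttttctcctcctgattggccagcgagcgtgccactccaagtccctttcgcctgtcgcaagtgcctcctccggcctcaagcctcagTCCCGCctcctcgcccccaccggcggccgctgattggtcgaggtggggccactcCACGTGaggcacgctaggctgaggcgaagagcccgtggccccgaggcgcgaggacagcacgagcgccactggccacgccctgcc
Stk31: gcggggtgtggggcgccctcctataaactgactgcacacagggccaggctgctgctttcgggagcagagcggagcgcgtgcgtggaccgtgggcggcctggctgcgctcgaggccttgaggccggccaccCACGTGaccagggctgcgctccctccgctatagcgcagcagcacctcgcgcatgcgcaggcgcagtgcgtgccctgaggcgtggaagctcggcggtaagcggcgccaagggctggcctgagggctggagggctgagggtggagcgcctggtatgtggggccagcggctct
Dazl: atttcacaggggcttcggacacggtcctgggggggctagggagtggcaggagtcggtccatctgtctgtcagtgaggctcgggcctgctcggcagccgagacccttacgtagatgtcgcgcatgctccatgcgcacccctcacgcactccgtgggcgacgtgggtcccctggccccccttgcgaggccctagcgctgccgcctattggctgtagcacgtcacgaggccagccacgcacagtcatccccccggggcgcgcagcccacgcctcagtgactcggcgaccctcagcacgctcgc
Mlc1: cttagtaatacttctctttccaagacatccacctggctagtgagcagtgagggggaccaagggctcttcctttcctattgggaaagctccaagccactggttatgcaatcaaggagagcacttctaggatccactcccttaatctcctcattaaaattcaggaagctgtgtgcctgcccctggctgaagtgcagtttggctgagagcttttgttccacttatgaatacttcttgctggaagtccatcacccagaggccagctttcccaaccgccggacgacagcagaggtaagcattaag

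CpG content was the feature most of the windows shared. The ratio of observed to expected CpG was above 0.6 in 8 of the 10, against 35.8% of all windows, with medians of 0.75 in the 10 genes and 0.38 overall. It was 1.03 for Taf7l, 0.84 for Rbm46, 0.83 for Slc25a31, 0.8 for Dazl, 0.75 for Btbd18 and Stk31, 0.73 for Tex13b and 0.7 for Tex101. The exceptions were Zfp541, with 4 CpG and a ratio of 0.27, and Mlc1, with 3 CpG and a ratio of 0.16. The RefSeq start used lies 10031 bases from the first base of the GENCODE gene for Zfp541, 4625 for Tex101 and 454 for Mlc1. Other starts of these genes were thus not covered, and the low CpG of Zfp541 and Mlc1 holds for these windows only. A motif match is a description of the letters and not evidence of binding, and methylation was not measured.

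Of the RNA-binding genes, Dazl was high in both experiments and Rbm46 mainly in the Usp7 knockdown. Dazl (ENSMUSG00000010592, chromosome 17, 50279395 to 50293636, GENCODE annotation of GRCm38) had counts of 75 and 97 without and of 1704 and 2134 with the Usp7 knockdown. In CPM these were 4.25 and 5.37 against 89.9 and 112, a 20.9-fold difference of means that ranked 23rd by log2 change among 15915 genes tested. For Ssrp1 the counts of Dazl were 92 and 119 (controls) and 803 and 1011 (labelled knockout), or 6.59 and 7.01 against 54.4 and 57 CPM. It rose 8.19-fold there, from 6.803 ± 0.296 to 55.72 ± 1.84 CPM (SD, n = 2 each; log2 change 3.08, SE 0.33, adjusted p = 0.0049). All 4 perturbed libraries stood above all 4 controls, and the pair labelled knockout differed from each other by a factor of 1.05.

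Rbm46 (chromosome 3, 82837228 to 82876483) was nearly silent in controls, with 9 and 4 counts for Usp7 and 1 and 6 for Ssrp1. The Usp7 knockdown libraries had 149 and 263 counts, which is 7.86 and 13.7 CPM. Its ratio of normalised counts was 29.7 (exact 95% binomial interval 17.2 to 56.3, which covers counting error only). The libraries labelled Ssrp1 knockout had 8 and 38 counts, too few to pass the filter on low counts, so the gene was not tested; the ratio was 6.26 (interval 2.81 to 16.4). Replicate 2 supplied most of these counts.

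**Figure D1:**
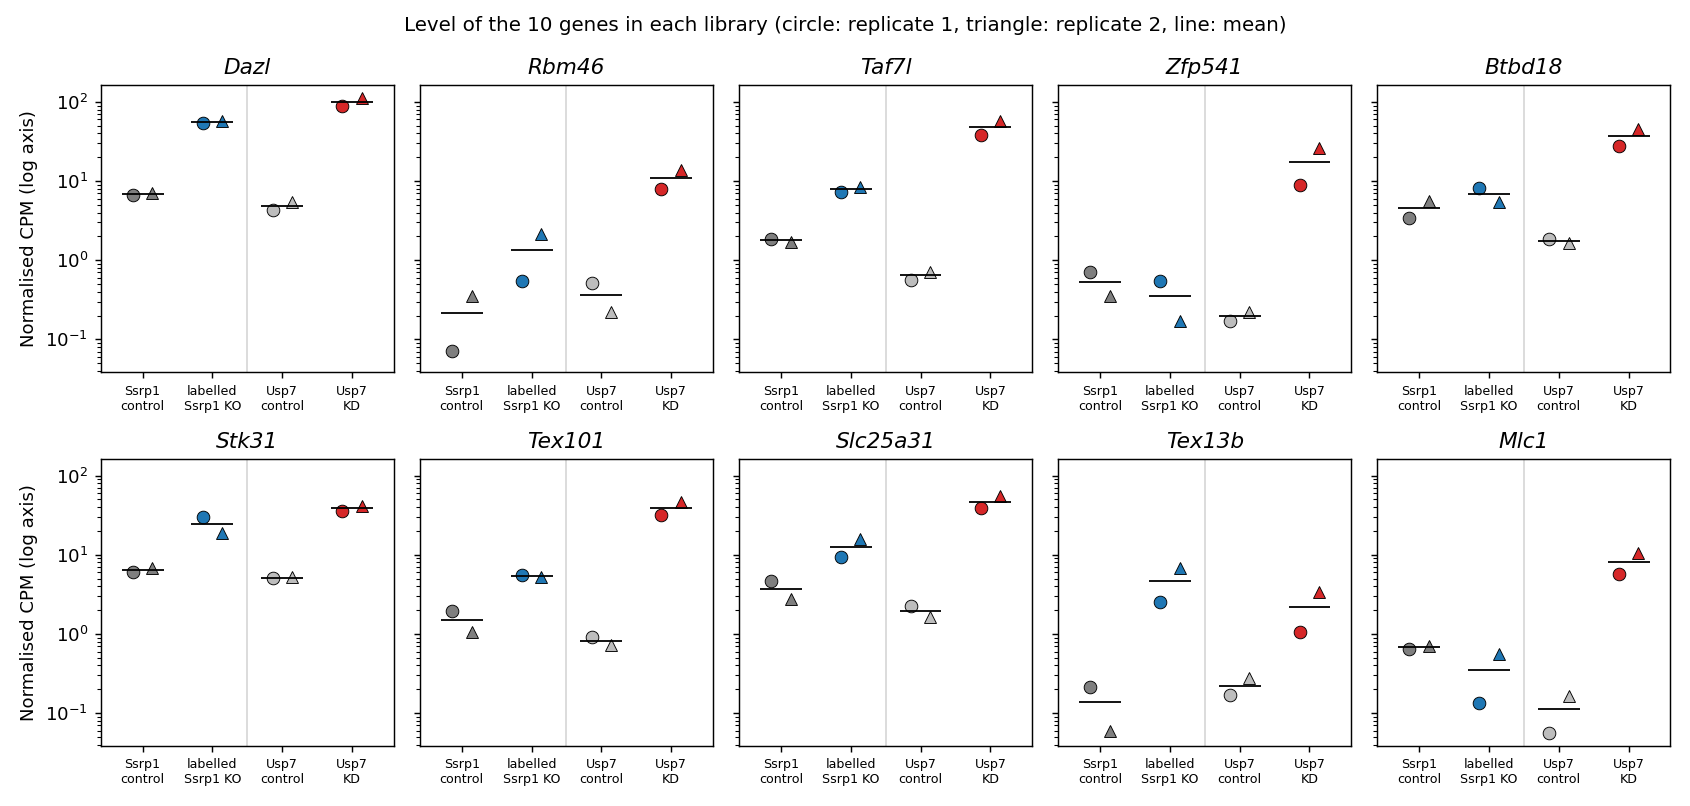
Normalised CPM (log axis) of each of the 10 genes in the 8 libraries, by group; circles are replicate 1, triangles replicate 2 and lines group means. In the Usp7 knockdown all 10 genes stand above their controls and the replicate 2 point is the higher; in the libraries labelled Ssrp1 knockout Dazl stands at 54.4 and 57 CPM while Zfp541 and Mlc1 stay below 1 CPM.

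Of the transcription genes, Taf7l was higher in both experiments, whereas Zfp541 and Btbd18 were clearly higher in the Usp7 knockdown. Taf7l (chromosome X, 134460118 to 134476490) went from 10 and 13 counts to 716 and 1104 under Usp7 knockdown, or 0.566 and 0.72 against 37.8 and 57.7 CPM. That is a 74.2-fold difference, the 7th largest log2 change of all genes tested. With Ssrp1 targeted it had 108 and 151 counts against 26 and 29, and rose 4.43-fold, from 1.786 ± 0.109 to 7.918 ± 0.847 CPM (log2 change 2.2, SE 0.54, adjusted p = 0.0499). This call lay at the edge of the threshold.

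Zfp541 (chromosome 7, 16061814 to 16096334) went from 3 and 4 counts to 168 and 497 under Usp7 knockdown, or 0.17 and 0.221 to 8.86 and 26 CPM. The ratio was 89.1 (interval 43 to 222, which includes the ratios of Taf7l and Mlc1), and the knockdown libraries differed from each other by a factor of 2.93. For Ssrp1 it had 10 and 6 counts in controls and 8 and 3 in those labelled knockout, and did not pass the filter. The groups overlapped, with a ratio of 0.654 (interval 0.275 to 1.5).

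Btbd18 (chromosome 2, 84659079 to 84668780) rose 20.8-fold in the Usp7 knockdown, from 33 and 30 counts to 524 and 877. Its 3.44 and 5.66 CPM in the Ssrp1 controls overlapped its 8.13 and 5.47 CPM in the pair labelled knockout. Its log2 change there was 0.62 (SE 0.53, adjusted p = 0.6), which did not pass the test.

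Stk31, Tex101 and Slc25a31 showed the same order of groups as Dazl and Taf7l. Stk31 (chromosome 6, 49395604 to 49469501) went from 5.09 and 5.2 CPM to 36.1 and 41.6 CPM under Usp7 knockdown, a 7.55-fold difference with a log2 change of 2.91 (110th of all tested). The Ssrp1 experiment gave counts of 84 and 114 against 447 and 338, a rise of 3.87-fold from 6.369 ± 0.494 to 24.68 ± 7.94 CPM (log2 change 2.0, SE 0.41, adjusted p = 0.026). The groups did not overlap in either experiment. Differences between the experiments were not tested for any of the 10 genes, because the choice of genes used one of them.

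Tex101 (chromosome 7, 24668007 to 24676675) went from 0.906 and 0.72 CPM to 31.4 and 46.9 CPM under Usp7 knockdown, a 48.2-fold difference. Its 1.93 and 1.06 CPM in the Ssrp1 controls compared with 5.49 and 5.25 CPM in those labelled knockout. These groups did not overlap, but the log2 change of 1.9 (SE 0.6) did not pass the test (adjusted p = 0.11).

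Slc25a31 (chromosome 3, 40708855 to 40726096) was at 2.26 and 1.66 CPM without and 38.7 and 54.9 CPM with Usp7 knockdown, a 23.8-fold difference. The Ssrp1 controls had 4.66 and 2.77 CPM of it, against 9.42 and 16 CPM with Ssrp1 targeted. The groups were again apart, with a log2 change of 1.84 (SE 0.51) that did not pass the test (adjusted p = 0.076).

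Tex13b (chromosome X, 140808307 to 140813433) was the one gene with a larger fold in the Ssrp1 experiment than in the Usp7 experiment. Its 3 and 1 counts in the Ssrp1 controls compared with 37 and 121 in the pair labelled knockout, a ratio of 37.6 (interval 14.4 to 140; log2 change 5.12, SE 0.91, adjusted p = 0.016). Tex13b passed the filter of the Ssrp1 fit only through the pair labelled knockout, so its call there is no support. For Usp7 the counts were 3 and 5 against 20 and 64, a ratio of 9.85 (interval 4.78 to 23.6). The counting intervals overlap, and replicates within both perturbed groups differed by factors of 2.72 and 3.17.

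Mlc1 (chromosome 15, 88955884 to 88979007) went from 1 and 3 counts to 110 and 203 under Usp7 knockdown, a ratio of 73.4 (interval 28.4 to 271). For Ssrp1 it had 9 and 12 counts in controls and 2 and 10 in those labelled knockout, and did not pass the filter. The ratio there was 0.544 (interval 0.244 to 1.16). The astrocyte and glial markers of the list were partly silent and partly detected in the Usp7 experiment. Aqp4, Gjb6 and S100b had 0 counts in its 4 libraries, and Slc1a2 had 1, 1, 2 and 2. Others were detected in controls as well as in the knockdown: Aldh1l1 had 104 and 113 against 130 and 148 counts, Slc1a3 115 and 189 against 117 and 69, Kcnj10 62 and 79 against 65 and 66, and Gfap 28 and 49 against 17 and 36. Hepacam, whose protein is the known partner of Mlc1, had 6 and 4 counts in controls and 9 and 18 in the knockdown. Of 14 astrocyte and glial markers 8 and 10 had any count in the 2 controls and 11 in each knockdown library, with summed levels of 123 and 145 against 166 and 201 CPM. Of the 6 tested, Gja1, a gap junction gene also active in stem cells, rose 1.87-fold (adjusted p = 0.035) and Aldoc fell (log2 change -1.38, adjusted p = 0.026). Gja1 supplied 81 and 83.4 CPM of the control sums and 134 and 174 CPM of the knockdown sums. Aldoc supplied 24 and 37.4 against 14.1 and 9.52 CPM, so the higher sums rest on Gja1. The part of glial-like cells in the level of Mlc1 was not tested.

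**Figure D2:**
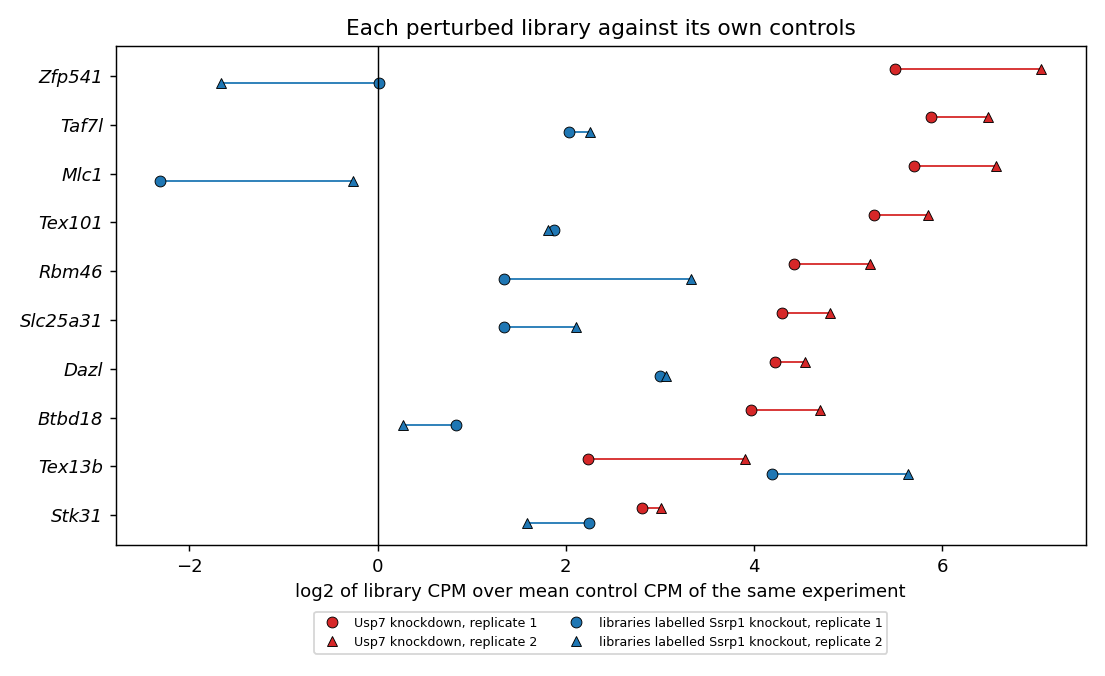
The log2 ratio of each perturbed library to the mean control CPM of its own experiment, for the 10 genes ordered by their fold in the Usp7 knockdown; red marks Usp7 knockdown, blue the libraries labelled Ssrp1 knockout, circles replicate 1 and triangles replicate 2. All red points lie above 2, whereas the blue points range from below 0 for Mlc1 to above 5 for Tex13b, the one gene whose blue points lie to the right of its red ones.

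Over the 10 genes, log2 changes in the Usp7 knockdown ran from 2.91 to 6.43 with a median of 4.72, beside a median of -0.02 over all genes tested. All 10 were past an adjusted p of 0.05 and higher, as were 2.36% of all genes tested; the choice of the genes used this contrast, so nothing is read from that count, nor from the absence of overlap between groups for all 10 (24.7% of all genes). For Ssrp1, 7 of the 10 genes passed the filter. Dazl, Taf7l, Stk31 and Tex13b rose, beside 3.39% of all 15757 genes tested there, and none of the 7 fell (0.324% of all). Genes that are low in controls can pass this filter through the libraries labelled knockout alone, so the share among those that passed is not a measure for the 10. Tex13b did so, with 3 and 1 control counts, and its call is no support. The libraries labelled knockout stood above both controls, with no overlap, for 7 of the 10 genes (25.5% of all genes tested). Stem cell cultures hold a few cells that resemble the 2-cell embryo, and 11 of 14 tested markers of these cells rose with Ssrp1 targeted. The summed level of the 15 listed was 262 and 382 CPM in those controls and 934 and 1842 CPM in the pair labelled knockout. Under Usp7 knockdown 7 of 9 tested rose, and the sum was 223 and 205 CPM, against 217 and 205 CPM without it. The largest rises weigh little in that sum: Usp17lb went from 0.1403 to 2.128, Usp17la from 0.1403 to 1.235 and Zscan4c from 1.01 to 6.932 CPM. Usp17lb and Usp17la, with 3 and 2 control counts each, passed the filter only through the knockdown libraries. Zfp352, a marker called for Ssrp1 with 2 and 14 control counts there, would not have passed the filter on those controls alone. The part of such cells in the rise of the germ cell genes was not tested.

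The number of these genes called in the Ssrp1 experiment depended on the libraries. It was 7 of 10 without the library labelled knockout replicate 1, whose Ssrp1 transcript was near the control level, and 5 without replicate 2, beside 6.83% and 8.91% of all genes higher in those fits. In the first of these fits Slc25a31 and Tex101 joined the 4 (log2 changes 2.11 and 1.81; adjusted p = 0.00064 and 0.037). Rbm46 also counts among the 7, but it passed the filter of that fit only through its 38 counts in the remaining library labelled knockout, against 1 and 6 in controls, so its call is no support. A fit with 1 library in an arm takes its spread from the other arm and assumes that the lone library varies alike. Without control replicate 1 or without control replicate 2 only Dazl was called (log2 change 2.98 and 3.14; adjusted p = 0.036 and 0.0055), beside 0.0938% and 1.77% of all genes. DESeq2, a fit without the filter and a joint fit of the 8 libraries each called 6 of the 10, beside 5.22%, 4.23% and 6.11% of all genes. With a library left out, the log2 change stayed at 2.98 to 3.14 for Dazl, 2.08 to 2.24 for Taf7l and 1.57 to 2.29 for Stk31.

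Base composition moved with the changes, more in the Ssrp1 than in the Usp7 experiment as far as the medians show. When genes were split by GC content into 5 bins of equal size, the lowest bin (29.6% to 44.1% in the longest transcript) had a median log2 change of 0.69 for Ssrp1 and the highest bin -0.18. For Usp7 the medians went the same way over a smaller range, from 0.05 in the lowest bin through 0.02, -0.04 and -0.08 to -0.13 in the highest. The transcripts of Dazl (37.0% GC), Rbm46 (38.4%), Stk31 (40.1%), Slc25a31 (41.1%) and Taf7l (43.9%) all belong to the lowest bin. With a correction for GC content and length, the log2 change for Ssrp1 was 1.83 for Dazl (adjusted p = 0.031), 1.01 for Stk31 (adjusted p = 0.15), 0.96 for Slc25a31 (adjusted p = 0.36) and 1.66 for Taf7l (adjusted p = 0.11). Tex13b (46.6% GC) stayed at 4.84 (adjusted p = 0.024) and Tex101 (51.2% GC) at 1.91. Dazl and Tex13b were the 2 genes called after the correction, beside 1.39% of all genes higher. Of these, Tex13b had passed the filter only through the libraries labelled knockout. What GC content contributed to the rises was not tested further. For Usp7 the same correction moved Dazl most, from 4.39 to 4.23.

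**Figure D3:**
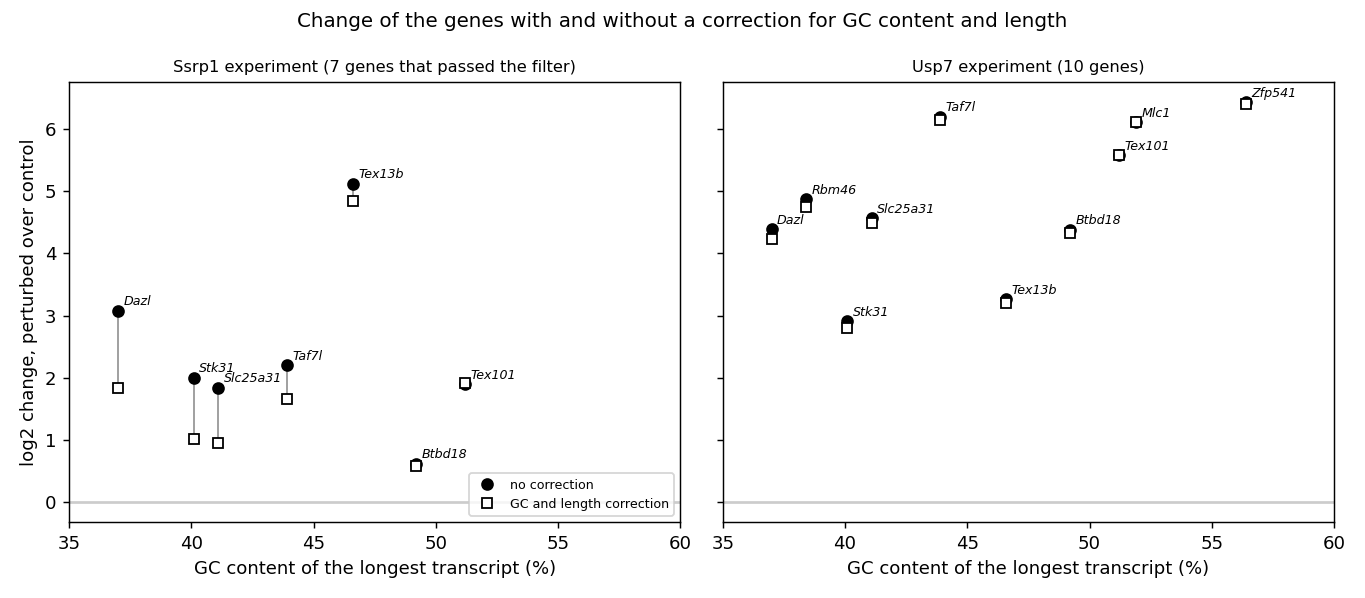
Log2 change of each gene (vertical axis) against the GC content of its longest transcript in percent (horizontal axis), without correction (filled circles) and with a correction for GC content and length (open squares), in the Ssrp1 experiment (left, 7 genes that passed the filter) and the Usp7 experiment (right, 10 genes). The gap between the symbols is widest for Dazl on the left (3.08 against 1.83) and nearly closed for every gene on the right.

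Per exon length the 10 genes differed widely in level. In TPM, which divides counts by exon length, the Usp7 controls had 4.2 to 5.38 of Stk31 and 2.96 to 4.71 of Dazl, which overlap, then 2.61 to 2.84 of Slc25a31. Mlc1 (0.0539 to 0.198) and Zfp541 (0.0928 to 0.152) were at the low end and overlapped too. With the longest transcript as length the means of Stk31 and Dazl changed order (3.66 and 3.77). In the knockdown Dazl (74 and 99.6 TPM in the 2 libraries), Tex101 (59.6 and 96.6), Slc25a31 (57.2 and 88) and Taf7l (52.9 and 87.7) formed a top group whose ranges overlapped. Stk31 (35.1 and 43.8) and Btbd18 (24.7 and 44.4) followed and did not differ beyond their spread. Rbm46 (9.9 and 18.8), Zfp541 (5.72 and 18.2) and Mlc1 (6.52 and 12.9) overlapped below them, and Tex13b was lowest at 1.19 and 4.07. The longest-transcript length lowered the mean of Slc25a31 in the knockdown from 72.6 to 56 TPM and that of Stk31 from 39.5 to 30.5 TPM. In the libraries labelled Ssrp1 knockout Dazl was highest at 29.9 and 39 TPM, above Stk31 (15.4 and 19.6 TPM) and Slc25a31 (9.29 and 19.7 TPM), whose ranges overlapped. The 2 sets of control cells also differed: Taf7l stood at 1.86 and 1.71 CPM in the Ssrp1 controls against 0.566 and 0.72 in the Usp7 controls, Btbd18 at 3.44 and 5.66 against 1.87 and 1.66, and Mlc1 at 0.645 and 0.707 against 0.0566 and 0.166. Experiment and control treatment cannot be told apart in these differences.

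The knockdown replicates were not alike for these genes. Replicate 2 was higher than replicate 1 for 10 of 10 genes, by factors of 1.15 for Stk31 to 3.17 for Tex13b with a median of 1.59. Among all genes tested 49.7% were higher in replicate 2, and among the 366 other genes called higher in the knockdown 69.9% were. Usp7 itself stood at 111 CPM in replicate 1 and 122 CPM in replicate 2. Without replicate 2 the log2 changes lay between 2.2 for Tex13b and 5.86 for Taf7l. This is a description only, because the choice of the genes used this contrast. In the pair labelled Ssrp1 knockout replicate 2 was the higher for 6 of 10 genes (50.6% of all genes).

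The genes with the most similar profile were found by correlation. Against the mean log2 CPM of the 10 genes over the 8 libraries, the highest Pearson correlations among 10890 genes were those of Ddx4 (0.989), Piwil2 (0.984), Tdrd9 (0.976), Tdrkh (0.973) and Mov10l1 (0.971), given as a description over libraries that fall into 4 groups. Ddx4, encoding a germ cell RNA helicase, had mean levels of 16.1 (control) and 31.7 CPM for Ssrp1, and of 10.1 (control) and 155 CPM for Usp7. Of the 10 genes themselves, Taf7l and Tex101 followed the mean of the other 9 most closely (0.99 each) and Tex13b least (0.67). Because the 10 were chosen for a rise in the Usp7 knockdown, high correlations follow in part from the choice and are no support.

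The wider germ line programme was followed with lists of other genes. In the Usp7 knockdown 11 of 31 tested germ cell determinants and RNA regulators, 15 of 32 meiosis genes and 9 of 17 piRNA genes rose and none of them fell, beside 2.36% of all genes higher and 0.628% lower. Their median log2 changes were 0.85, 1.04 and 1.7. With Ssrp1 targeted 2 of 30, 4 of 29 and 1 of 17 rose, beside 3.39% of all genes higher. The medians there were 0.9, 0.92 and 0.58, beside 0.03 for all genes tested and 0.69 for the lowest GC bin, and the lists were not matched on GC content. These lists were set up with earlier results of these data known. Genes low in controls can pass the filter through the perturbed libraries alone, so these shares are not a measure for the whole lists. Gm4969, the gene of the meiotic initiator Meiosin, rose 32.6-fold in the knockdown (0.7039 ± 0.526 to 22.91 ± 10.8 CPM, n = 2 each, adjusted p = 0.0005). With 19 and 6 control counts it would not have passed the filter on its controls alone, so its call is no support. The determinants called for Ssrp1 were Meioc, a meiotic RNA regulator, at 5.58-fold (adjusted p = 0.013), and Stra8, the retinoic acid-induced gene of meiotic entry, at 4.16-fold (adjusted p = 0.008).

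Genes of later germ cell stages were mostly too low to test. Of 27 postmeiotic sperm genes only 8 passed the filter in the Usp7 experiment, and edgeR called 0 of them (DESeq2 called 0, and 1 had an unadjusted p under 0.05). For Ssrp1 the count was 0 of 8 by both tools and without adjustment. Of 6 oocyte genes tested in the Usp7 experiment, Figla, an oocyte transcription factor gene, rose 12.2-fold (adjusted p = 0.045) and Tle6, a maternal complex gene, fell (log2 change -1.22, adjusted p = 0.031). Figla had 1 and 2 counts in controls against 13 and 26. It passed the filter only through the knockdown libraries, so its call is no support. Of 14 primordial germ cell markers tested, 2 rose in the knockdown, Ddx4 and, with the limit just given, Figla. Of the stem cell markers 0 of 16 were called in the Usp7 experiment by edgeR (DESeq2 called 1, and 3 had an unadjusted p under 0.05), and Pou5f1, encoding Oct4, stood at 1434 and 966 CPM without and 999 and 908 CPM with the knockdown. Of 8 tested markers of Sertoli and other somatic gonad cells 1 rose, Foxl2 (10.6-fold, adjusted p = 0.046), from 0.08429 to 0.8928 CPM. Foxl2, with 2 and 1 control counts, also passed the filter only through the knockdown libraries. Of 6 neural markers tested 1 rose, Pax6, encoding a transcription factor of neural progenitors (2.4-fold, from 8.046 ± 1.59 to 19.32 ± 1.01 CPM, adjusted p = 0.02). The summed level of the 10 neural markers was 145 and 127 CPM in the Usp7 controls against 176 and 189 CPM; their part in other changes was not tested. Of 11 other testis-expressed TEX genes tested 2 rose, Tex19.2 and Tex19.1. Tex19.2, with 21 and 9 control counts, would not have passed the filter on its controls alone, so its call is no support. Of 7 fibroblast markers edgeR called 0 (DESeq2 called 0, and 2 had an unadjusted p under 0.05). Beside these counts for Usp7 stand 2.36% of all genes tested that were higher and 0.628% that were lower.

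The widely expressed relatives Taf7, Slc25a4 and Slc25a5 did not pass the test in the Usp7 experiment. Taf7 stood at 125.5 ± 8.05 CPM without and 148.3 ± 1.4 CPM with the knockdown (adjusted p = 0.54), and the TFIID subunit gene Taf1 124.7 ± 28.8 and 126.6 ± 1.95 CPM (adjusted p = 0.97). The somatic ADP/ATP carrier gene Slc25a5 stood at 682.1 ± 132 and 545.2 ± 46.1 CPM (adjusted p = 0.5) and Slc25a4 at 157.5 ± 29.6 and 91.11 ± 12.5 CPM (adjusted p = 0.069). Of 20 relatives and partners tested 3 rose and 0 fell, beside 2.36% of all genes higher and 0.628% lower. The largest rise was that of Tdrd1, a tudor domain gene of the piRNA pathway (27.5-fold). Boll, the germ cell relative of Dazl, rose 6.15-fold to 3.621 ± 0.646 CPM (adjusted p = 0.013), and Taf9b 5.38-fold, from 1.963 ± 0.506 to 10.56 ± 2.37 CPM (adjusted p = 0.0036). Boll, with 12 and 9 control counts, would not have passed the filter on its controls alone, so its call is no support. Kctd19, encoding the spermatocyte partner of Zfp541, stood at 2.169 ± 1.79 without and 1.732 ± 0.212 CPM with the knockdown (adjusted p = 0.82). Meioc and Ythdc2, whose proteins act with Rbm46, had log2 changes of 1.05 (adjusted p = 0.13) and 0.01 (adjusted p = 0.99).

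Most genes next to the 10 did not pass the test. Of all genes tested in the Usp7 experiment 2.36% were higher and 0.628% lower, so few calls in a small set of neighbours say little. Within 100 kb of their bodies 33 other genes were tested in the Usp7 experiment, with a median log2 change of 0.02, and 2 of them rose. Both lie beside Mlc1. Mov10l1, a helicase gene of the piRNA pathway (chromosome 15, 88982909 to 89055152), is transcribed away from Mlc1 on the opposite strand and starts 3902 bases from the end of the annotated Mlc1 body where Mlc1 starts. Its counts were 142 and 185 without and 2370 and 3471 with the knockdown (log2 change 4.06, SE 0.26, adjusted p = 1.8e-05). Between them lies the processed pseudogene Gm8702, with 0 counts in both controls and 15 and 30 in the knockdown (adjusted p = 0.016). Gm8702 passed the filter only through the knockdown libraries, so its call is no support. With Ssrp1 targeted Mov10l1 had 361 and 704 counts, against 356 and 325 (adjusted p = 0.43). Of the 29 neighbours of the other genes edgeR called 0 for Usp7 (DESeq2 called 0, and 5 had an unadjusted p under 0.05). Rbm46 and Tex13b had no tested neighbour in this window, and no exon of the 10 genes overlapped an exon of another gene.

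**Figure D4:**
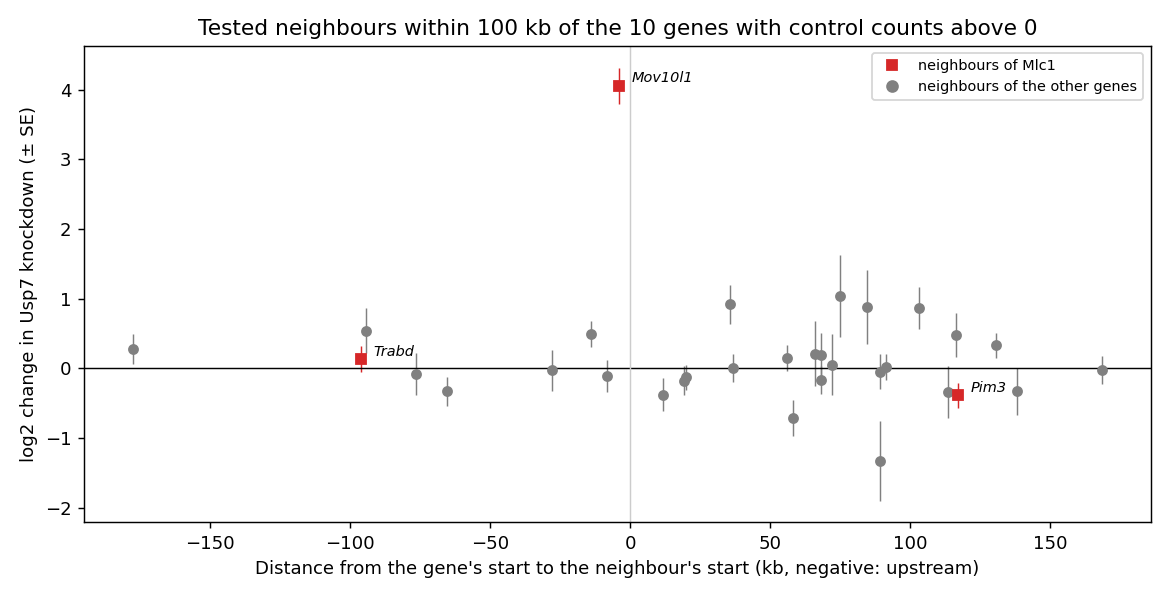
Log2 change in the Usp7 knockdown (± SE) of genes within 100 kb of the 10 genes, against the distance in kb from the start of the chosen gene to the start of the neighbour, negative upstream; genes with no control count are left out. Mov10l1, just upstream of Mlc1, stands at 4.06, while the neighbours of the other genes (grey) lie between -1.33 and 1.04.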

How the data were processed

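The authors deposited 2 tables of unnormalised counts per Ensembl gene, with 4 libraries each. Per the submitters' processing notes, reads passed through cutadapt, HISAT2 (mm10) and featureCounts; tool versions, annotation release and strand mode were not given in the sources used here. Without strand, antisense reads cannot be told apart. Groups come from the sample titles. Symbols came from the GENCODE vM21 annotation (GRCm38). All 92 spike-in rows held 0 counts.

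Each experiment was fitted on its own 4 libraries in edgeR 4.0.16 (R 4.3.3): filterByExpr defaults, TMM factors, quasi-likelihood F test, Benjamini-Hochberg adjustment over all genes tested, called at an adjusted p under 0.05. The standard error is the log2 change over the square root of F. CPM values use TMM factors from all 8 libraries; TPM uses the union of exons. The fitting code was first checked with simulated counts. Ratios on 20 or fewer counts in a group carry an exact 95% binomial interval. Alternatives were DESeq2 1.42.0, its size factors, no filter, each library left out, a replicate block, a joint fit and a GC and length correction (a smooth fit with mgcv 1.9.3). The 10 genes, the gene lists and the tests were chosen with earlier results of these data known. Other genes are named by rule: up to 3 called genes with the largest change per list, relatives and partners of the 10 genes, and the 5 genes most like them (mean of at least 5 CPM in some group); neighbours, glial markers and Pou5f1 were named for position or role.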

Additional observations from a re-analysis of the deposited data

Results flagged for a closer look

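Mlc1 was higher than its controls in both Usp7 knockdown libraries (ratio of normalised counts 73.4) and lower than its controls in both libraries labelled Ssrp1 knockout (ratio 0.544). The difference between the experiments was not tested. The lower value rests on 21 control counts and 12 counts in the libraries labelled knockout, and its counting interval of 0.244 to 1.16 includes 1.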

How the results depend on the processing

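With 2 libraries per group the number of calls moved with most settings. In the Ssrp1 experiment 585 genes were called, against 1088 with DESeq2, 1497 without a filter, 1314 in the joint fit of 8 libraries, 293 with the GC and length correction, 248 with that correction made from binned medians (chosen after seeing the data) and 20 to 1884 when a library was left out, 20 without control replicate 1. In the Usp7 experiment 476 were called, against 100 without a filter, 78 in the joint fit, 747 and 730 with the corrections and 42 to 3770 when a library was left out, 42 without knockdown replicate 2 and 3770 without control replicate 2. The GC and length correction changed the higher and lower calls from 534 and 51 to 218 and 75 for Ssrp1 (91.3% to 74.4% higher; 82.3% with binned medians). For Usp7 both numbers grew, from 376 and 100 to 480 and 267 (79.0% to 64.3% higher; 73.7% with binned medians). Of the 10 genes, 4 were called in the Ssrp1 experiment, against 2 with either correction, 6 with DESeq2, without a filter and in the joint fit, and 1 to 7 when a library was left out. Replicate numbers gave a correlation of deviations of 0.184 and 0.144 between groups, but nothing in the labels pairs them; with the number as a block 988 and 1471 genes were called, and 4 of the 10 genes. No change of the genes that passed the filter reversed. Exon length taken from the longest transcript moved their TPM by factors of 0.772 to 1.05. Depth limits the ratios of Rbm46, Zfp541, Tex13b and Mlc1, which rest on 4 to 21 control counts in a group.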

Other observations

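Few genes of the machinery known to silence germ cell genes passed the test. Of all genes tested 2.36% were higher and 0.628% lower for Usp7, and 3.39% and 0.324% for Ssrp1. Of 16 subunits of the polycomb complex named in the background, E2f6 rose 2.26-fold in the Usp7 knockdown, from 31.41 ± 2.56 to 71.1 ± 6.73 CPM (SD, n = 2 each; adjusted p = 0.01), and none fell; in the Ssrp1 experiment edgeR called 0 of 16 (DESeq2 called 0, and 3 had an unadjusted p under 0.05). Of 12 genes of DNA methylation and demethylation 0 were called in the Usp7 experiment (1 unadjusted, 0 by DESeq2). In the Ssrp1 experiment Hells, a chromatin remodeller that acts in DNA methylation, rose 3.84-fold (adjusted p = 0.023). Of 13 genes of H3K9 methylation edgeR called 0 in either experiment (1 unadjusted and 0 by DESeq2 in each).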
